A study of Mus musculus with 8 samples.

Results

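The genes described here are 7 genes of retinal glia: Gfap, Gja1 and Ndrg2, taken as astrocyte-enriched, and Vim, Aqp4, Dkk3 and Dbi, taken as Müller-enriched. They were chosen by name, and all 7 are among the 1802 genes of the one table analysed, a comparison by the authors of cells from ABCA1 knockout and control mouse retina. Papain was used to separate the retinal cells, which went through droplet-based 3′ single-cell RNA sequencing as 3 control libraries titled WT and 5 libraries titled KO with the genotype ABCA1KO. The labels do not give the age, strain or sex of the mice, the allele, the cells in which Abca1 was deleted, or whether a library is a separate animal. ABCA1 is the transporter that loads cellular cholesterol and phospholipid onto apolipoproteins, and per the series title the study concerned astrocytes and optic neuropathy.

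The macroglia of the retina are astrocytes and Müller glia. Astrocytes lie in the nerve fibre layer among the axons of ganglion cells and over the superficial vessels, whereas Müller glia span the whole depth of the retina, take up glutamate and potassium, and move water. Both kinds make intermediate filaments, and a gain in GFAP, which Müller glia otherwise make little of, is the usual sign of gliosis. The division of the 7 genes is one of degree, since astrocytes also make vimentin and aquaporin-4, and Müller glia also make connexin 43 and NDRG2.

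Each value below is one number per gene over all cells of a genotype, with no value per library, so no spread between libraries, error or depth can be given. The log difference is the authors' KO minus WT value, read as a natural log. The p-values were adjusted for a fixed set of 2000 features and the table's title abbreviates a word that may be integrated, so the values may have been aligned between libraries. A log difference is therefore not given as a fold change, nor a share of cells above 0 as a detection rate. Because cells of all types are pooled, a different share of glia among the cells and a different level within glia cannot be told apart, and the glial identity of the cells could not be checked. The targeted gene, Abca1, was listed by the authors' deposited table at 0.0294, that is, higher in KO, and a 3′ tag outside a deleted part checks nothing, so the label KO was not checked by these values. KO below means cells of the libraries so labelled.

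All 7 genes are protein-coding, in the GENCODE annotation of GRCm38. Gfap lies on chromosome 11 from 102887336 to 102900912, Gja1 on chromosome 10 from 56377330 to 56402513, and Ndrg2 on chromosome 14 from 51905271 to 51914158. Vim lies on chromosome 2 from 13573927 to 13582826, Dkk3 on chromosome 7 from 112116017 to 112159057, and Dbi on chromosome 1 from 120113280 to 120121078. Gja1 and Vim are on the plus strand and Gfap, Ndrg2, Dkk3 and Dbi on the minus strand. Gfap is overlapped by 1 annotated gene on the opposite strand, Gm26668, and Aqp4 by 1, AC133525.2. Whether the authors' counting used strand is not given in the sources used here, so reads of these partners may not be separated from Gfap and Aqp4.

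RefSeq promoter windows on GRCm38.p6 were matched for 5 of the 7 genes, and 2 are shown, because Gfap is the defining astrocyte gene and Gja1 the astrocyte-enriched gene with the highest log difference. Each is the 250 bases before the transcription start, 5′ to 3′ along the gene's strand, and overlaps no exon annotated for that gene. For Gfap it is chr11:102897201-102897450, within the span of the gene, and for Gja1 chr10:56377050-56377299. Capitals mark a match to one of 6 short motifs.
Gfap: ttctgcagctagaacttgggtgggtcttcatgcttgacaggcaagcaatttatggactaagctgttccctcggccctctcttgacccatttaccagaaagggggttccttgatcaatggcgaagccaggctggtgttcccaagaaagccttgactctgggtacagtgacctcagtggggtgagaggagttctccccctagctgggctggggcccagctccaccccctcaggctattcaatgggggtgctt
Gja1: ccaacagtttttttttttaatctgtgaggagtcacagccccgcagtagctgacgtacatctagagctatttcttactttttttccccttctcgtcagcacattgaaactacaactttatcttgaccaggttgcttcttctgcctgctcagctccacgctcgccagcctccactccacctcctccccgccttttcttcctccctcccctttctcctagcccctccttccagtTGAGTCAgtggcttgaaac
The motifs, searched on both strands, were the TATA box (TATAAA), the CCAAT box (CCAAT), the GC box (GGGCGG), the AP-1 site (TGANTCA), the STAT site (TTCNNNGAA) and a SOX core (ACAAAG). They were chosen after these windows had been seen. The Gja1 window held 1 AP-1 match, 13 to 19 bases before the start, and 6.75% of 32851 RefSeq windows of that length hold at least 1. The window shown for Gfap held 0 matches. In the Vim window, which overlaps annotated UTR and is not printed, there was a TATA box 27 to 32 bases before the start, a motif found in 12.4% of windows, and CCAAT boxes 90 to 94 and 192 to 196 bases before it, a motif found in 33.8%. A match is a string of letters, and the data hold no measure of binding.

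All 7 genes had an adjusted p under 0.05 in the authors' deposited table, 6 with a positive log difference and 1, Aqp4, with a negative one. A gene past that threshold is said below to be called higher or lower by the sign of its log difference alone. A call is not a measure of the spread between libraries. Among all 1802 listed genes, 93.2% were called, 69.1% as higher and 24.1% as lower, so the count of calls does not set the glial genes apart from the other listed genes. No listed gene had a raw p above 0.00938, so the list may itself have been cut by p, the 7 genes included. Shares and medians over all listed genes therefore describe that list alone, and not the features left out of it. The share of cells above 0 was larger in KO than in WT for all 7 genes, as it was for 97.9% of all listed genes. The glial genes differed in the size of the log difference, for Aqp4 also in its sign, and in how much larger the KO share was. By log difference, Dbi, Vim and Dkk3 lay far above the median gene of the table and Aqp4 far below. Gfap and Ndrg2 lay close to that median, and Gja1 lay between them and Dkk3.

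**Figure D1:**
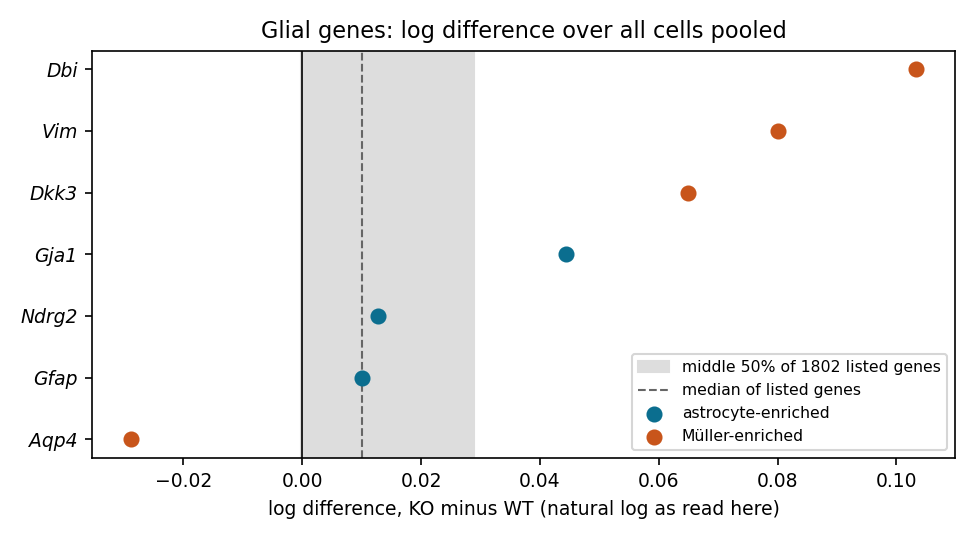
Log difference of each of the 7 glial genes (horizontal axis, KO minus WT, natural log), 1 point per gene, with the middle 50% of the 1802 listed genes in grey and their median dashed. Dbi, Vim, Dkk3 and Gja1 sit to the right of the grey band, Gfap and Ndrg2 inside it, and Aqp4 to its left at -0.0288.

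Gfap encodes the glial fibrillary acidic protein, the intermediate filament of astrocytes. In the authors' deposited table it had a value above 0 in 33.2% of WT cells and 48.4% of KO cells. Its log difference was 0.0101, with an adjusted p of 4.87e-28 in the authors' deposited table. That value differed by 3.1e-05 from the median of 0.010 over all listed genes and ranked at 899 of 1802 from the highest. The gain in share of Gfap, 15.2 percentage points, was the smallest of the 7 genes and lay below the lower quartile of all listed genes, 15.5.

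Gja1 encodes connexin 43, the gap junction protein that couples astrocytes to one another. Values above 0 were found for Gja1 in 40.6% of WT cells and 60.3% of KO cells in the authors' deposited table. Its log difference, 0.0444 with an adjusted p of 2.74e-73 in the authors' deposited table, was the highest of the 3 astrocyte-enriched genes and ranked at 242. Among 814 other genes with a WT share within 5 percentage points of that of Gja1, 127 had a higher log difference.

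Ndrg2 encodes a cytoplasmic protein of the N-myc downstream regulated family that is abundant in astrocytes. Its share was 47.0% in WT cells and 67.1% in KO cells in the authors' deposited table. The log difference of Ndrg2 was 0.0128 in the authors' deposited table, and its adjusted p of 0.000625 was the largest of the 7. It ranked at 829 of all listed genes. Against the median of the 590 genes of similar WT share, Ndrg2 was lower by a log difference of -0.00542, so its direction depends on what it is read against. Ndrg3, the other family member in the table, was called lower at -0.0448 in the authors' deposited table (adjusted p = 3.05e-13), and Ndrg1 and Ndrg4 were not listed.

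Vim encodes vimentin, the main intermediate filament of Müller glia. Of the 7 genes it had the largest shares, 58.8% of WT cells and 82.1% of KO cells in the authors' deposited table. Its log difference was 0.0801 in the authors' deposited table (adjusted p = 6.16e-111), at rank 79. Of 69 genes with a similar WT share, 14 had a higher log difference and 11 a larger gain in share.

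Dkk3 encodes a secreted protein of the Dickkopf family, whose other members block Wnt receptors. A value above 0 was listed for Dkk3 in 42.8% of WT cells and 63.5% of KO cells in the authors' deposited table. Its log difference was 0.0650 in the authors' deposited table (adjusted p = 5.41e-28), at rank 118. Among 797 genes of similar WT share, 58 had a higher log difference. The adjusted p of Dkk3 was close to the 4.87e-28 of Gfap, whose log difference was 0.0101, so the order of the p-values is not that of the log differences.

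Dbi encodes the acyl-CoA binding protein, also known as diazepam binding inhibitor, which carries long-chain acyl-CoA esters and is cleaved to peptides that act on GABA-A receptors. It was above 0 in 57.9% of WT cells and 78.4% of KO cells in the authors' deposited table. Dbi had the highest log difference of the 7, 0.103 in the authors' deposited table (adjusted p = 9.24e-63), at rank 40. Its gain in share, 20.5 percentage points, was near the median of 20.8 over all listed genes. Of 78 genes of similar WT share, 13 had a higher log difference.

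Aqp4 encodes aquaporin-4, the water channel of glial endfeet on vessels and at the vitreal surface. The gene lies on chromosome 18 from 15389496 to 15410982, minus strand. The deposited measures of Aqp4 pointed opposite ways. Values above 0 were listed in 33.4% of WT cells and 64.0% of KO cells in the authors' deposited table, a gain of 30.6 percentage points that was the largest of the 7 genes and ranked at 67 of 1802. Its log difference was -0.0288 in the authors' deposited table, at rank 1722, with the smallest adjusted p of the 7 (6.35e-220). Among 524 genes of similar WT share, 5 had a lower log difference and 23 a larger gain. A lower log difference beside a larger share was common, since it held for 454 of the 466 genes with a negative log difference (97.4%). The table does not say whether a p-value tests the mean, the rank or the share of the values, so the p of Aqp4 does not say which of its measures differed.

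**Figure D2:**
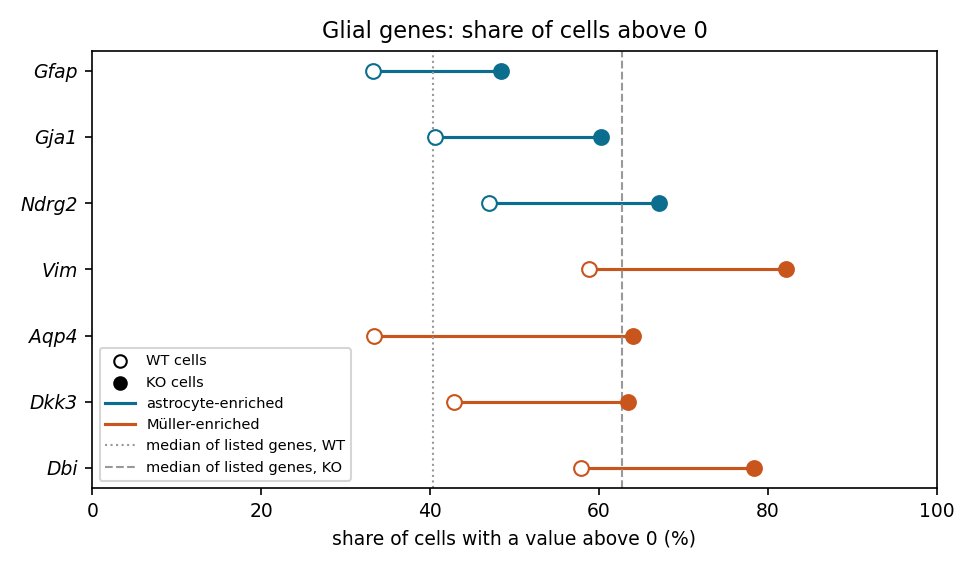
Share of cells with a value above 0 (horizontal axis, percent) for each gene in WT cells (open points) and KO cells (filled points), with the medians of all listed genes as vertical lines. All 7 shares are larger in KO cells, from a gain of 15.2 percentage points for Gfap to 30.6 for Aqp4.

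The Müller-enriched genes had higher log differences than the astrocyte-enriched genes, with Aqp4 as the exception. Their median was 0.0725 over 4 genes, from -0.0288 to 0.103, against 0.0128 over the 3 astrocyte-enriched genes, from 0.0101 to 0.0444. The difference of the medians was 0.0597, and with means in place of medians it was 0.0325. Of the 12 pairs made of a gene from each set, the Müller-enriched gene was higher in 9, and the 3 others all involve Aqp4. The smallest gap among the 9 was 0.0206, between Dkk3 and Gja1. Genes of one table are not replicates, so this contrast has no test. By log difference it was not seen in the wider marker lists described below, whose medians were 0.0113 for Müller glia and 0.0114 for astrocytes. With the 7 genes left out of those lists, the medians were 0.00850 and 0.00269.

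By the gain in share, the Müller-enriched gene was larger in all 12 pairs, Aqp4 included, although the sets nearly touch. The Müller-enriched genes gained from 20.5 to 30.6 percentage points, and the astrocyte-enriched genes from 15.2 to 20.1. Against the median gain of 20.8 over all listed genes, Aqp4 and Vim lay above, and Dkk3 (20.7) and Dbi (20.5) just below. Taken as a ratio of the KO share to the WT share, the sets overlapped. The median ratio was 1.44 for the Müller-enriched genes and 1.46 for the astrocyte-enriched genes, against 1.52 over all listed genes, and the Müller-enriched gene was higher in 5 of 12 pairs. Dbi and Vim, highest by log difference, had the lowest ratios, 1.35 and 1.40, whereas Aqp4, lowest by log difference, had the highest, 1.92. Dbi and Vim had the largest WT shares of the 7 genes, 57.9% and 58.8%, and the WT share of Aqp4, 33.4%, was next to the smallest.

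**Figure D3:**
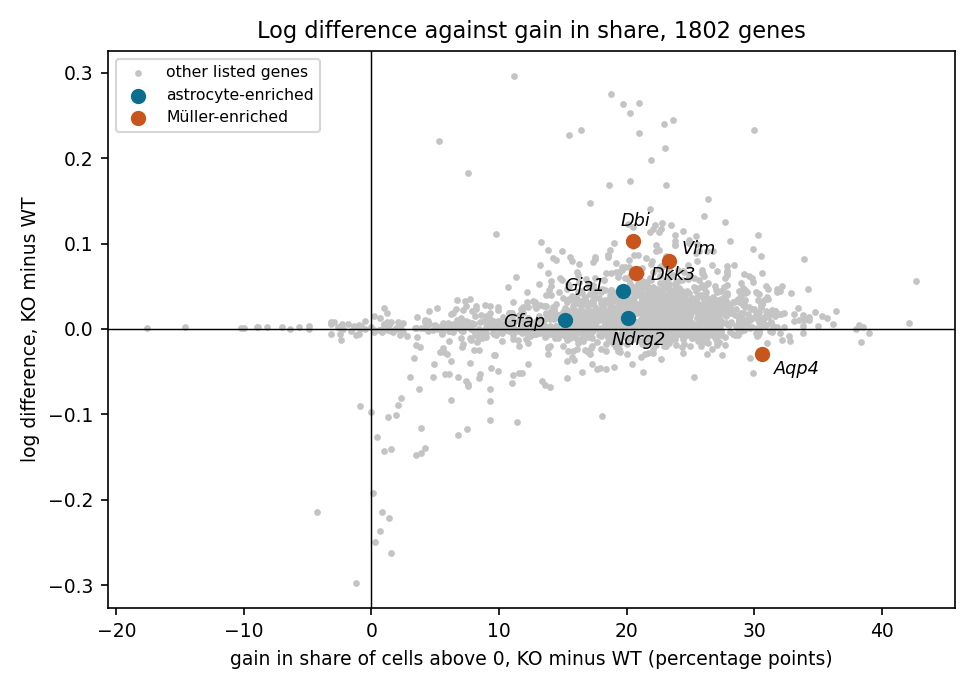
Log difference (vertical axis, KO minus WT) against the gain in the share of cells above 0 (horizontal axis, percentage points) for the 1802 listed genes, 1 point per gene, with the 7 glial genes coloured by set. Aqp4 lies at the lower right, with a gain of 30.6 and a log difference of -0.0288, and the other six lie above 0 on both axes.

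Genes with the most similar values were found by the sum of the rank differences over the log difference, the KO share and the WT share, which are 3 values of 1 comparison. The nearest gene was Trp53inp2 for Gfap, Lin7c for Gja1, D630024D03Rik for Ndrg2, Ftl1 for Vim, Olfm1 for Dkk3, Gng13 for Dbi and Sncg for Aqp4. Gng13, a G protein subunit of ON bipolar cells, stood at a log difference of 0.122 (the authors' deposited table), and Sncg, a gene of retinal ganglion cells, had -0.0164 in the authors' deposited table with shares of 32.4% of WT cells and 63.4% of KO cells. Values like those of the 7 genes were thus listed for genes of neurons as well.

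A wider list of astrocyte markers held 16 genes, of which 10 were listed, and the authors' deposited table called 7 of them higher and 3 lower, shares near the 69.1% and 24.1% of all listed genes. The median log difference of the 10 was 0.0114, against 0.010 over all listed genes, and 3 of the 10 had a gain in share above that of the median gene. Without Gfap, Gja1 and Ndrg2 the median of the other 7 was 0.00269. Slc1a2, the glutamate transporter GLT-1, was higher at 0.0293 in the authors' deposited table, and Fabp7, a fatty acid binding protein of radial glia, at 0.0233. Atp1b2, a sodium pump subunit, was called lower at -0.0635 in the authors' deposited table. Which cells of this tissue made the listed markers was not checked.

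For Müller glia, 25 of 30 markers were listed, with 18 called higher, 5 lower and 2 not called in the authors' deposited table. Those shares too are near the 69.1% higher and 24.1% lower of all listed genes, and against the median gene 11 were higher and 12 lower. Their median log difference was 0.0113, and 13 of the 25 lay above the median gene. Dbi, Vim and Dkk3 are thus from the upper end of that list. Genes still higher were Ptgds, which makes prostaglandin D2, at 0.148 and Dapl1, a death-associated protein homologue, at 0.140 in the authors' deposited table. Apoe, the apolipoprotein that takes up cholesterol released by ABCA1, was at 0.0783 in the authors' deposited table. All 5 Müller markers with a negative log difference, Aqp4 among them, had a larger share in KO cells, as did 97.4% of all listed genes with a negative log difference. Without Aqp4, Dkk3, Dbi and Vim, the other 21 had a median log difference of 0.00850. By gain in share, the 25 Müller markers had a median of 22.0 percentage points, against 19.9 for the 10 listed astrocyte markers. Of the 25, 14 had a gain above that of the median gene.

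Genes of reactive glia went both ways, with 8 called higher, 8 lower and 1 not called among the 17 listed of 41 in the authors' deposited table, and a median of 0.00155. Among all listed genes 69.1% were called higher and 24.1% lower, and against the median gene 5 of the reactive glia genes were higher and 11 lower. Vim (0.0801) and Hspb1, a small heat shock protein (0.105), were the highest, and H2-D1 of antigen presentation (-0.0473) and Tm4sf1, a surface protein (-0.0184), the lowest in the authors' deposited table. Cd14 was at 0.0211 and Serping1, a complement inhibitor, at 0.0108 in the authors' deposited table. Not listed were 24 genes of that list, for which nothing can be said.

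Among intermediate filament genes, 5 of 15 were listed. Synm, which encodes synemin, a partner of vimentin, was at 0.0908 in the authors' deposited table (adjusted p = 7.63e-193), next to Vim. Gfap stood beside the neuronal filament gene Nefl, at 0.00955, and Nefh was called lower at -0.0240 in the authors' deposited table. Filament genes of glia thus stood both near the top (Vim, Synm) and at the median (Gfap) of the range. Gja1 was the only one of 14 connexin genes that was listed.

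Water and potassium handling, the endfoot functions with which Aqp4 is grouped, had 7 of 17 genes listed. Of these the authors' deposited table called 4 higher and 3 lower, with a median of 0.0163. Over all listed genes 69.1% were called higher and 24.1% lower, with a median of 0.010. Kcnj10, the potassium channel Kir4.1 that sits with Aqp4 on Müller endfeet, was called higher at 0.0231 in the authors' deposited table (adjusted p = 1.07e-116). Dmd, which encodes the dystrophin that anchors both, was at 0.0428 in the authors' deposited table. The gains in share of Kcnj10 and Dmd were 23.5 and 21.7 percentage points, against 30.6 for Aqp4. The other genes of the list with a negative log difference were Atp1b2, at -0.0635 with a gain of 11.0 percentage points, and Aqp1, the other aquaporin listed, at -0.00691 with a gain of 27.3, in the authors' deposited table. Aqp1 was named after its values were seen.

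Transporters and enzymes taken as glial, and glial transcription factors, were mostly called higher, as were 69.1% of all listed genes. Whether Slc1a2 or the others are made by glia alone in this tissue was not checked. Of 5 listed genes for glutamate, bicarbonate and retinoid handling, the authors' deposited table called 4 higher and 1 lower. The highest was Slc1a2 (0.0293), followed by Slc4a4, a bicarbonate cotransporter (0.0167), Slc1a3, the glutamate transporter GLAST of Müller glia (0.0113), and Car14, a membrane carbonic anhydrase (0.00721), and the lactate transporter gene Slc16a1 was at -0.00200 in the authors' deposited table. Of 15 listed glial transcription factors, the authors' deposited table called 11 higher and 4 lower, and their median was 0.00552, below the 0.010 of all listed genes. Against the median gene, 6 of the transcription factors were higher and 9 lower. Pax6 (0.0797), which amacrine and ganglion cells also express, was the highest of them in the authors' deposited table, followed by Nfia (0.0296) and Lhx2 (0.0282), and Notch1 was at -0.0110.

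The families of Dbi and Dkk3 were read in the same way. For acyl-CoA binding and fatty acid handling, 10 of 16 genes were listed, 9 of them called higher, 0 lower and 1 not called in the authors' deposited table, with a median of 0.0296. Among all listed genes 69.1% were called higher and 24.1% lower, and against the median gene 7 genes of this list were higher and 2 lower. Fabp5 (0.240) and the desaturase gene Scd2 (0.112) lay above Dbi, and Acbd6, which also binds acyl-CoA, was at 0.0459 in the authors' deposited table. Of 19 Dickkopf and Wnt genes, 4 were listed, and the authors' deposited table called 2 higher and 1 lower. Frzb, a secreted Wnt antagonist, was called lower at -0.00495 in the authors' deposited table, and Ctnnb1, which encodes beta-catenin, had 0.0403 and was not called (adjusted p = 0.166).

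**Figure D4:**
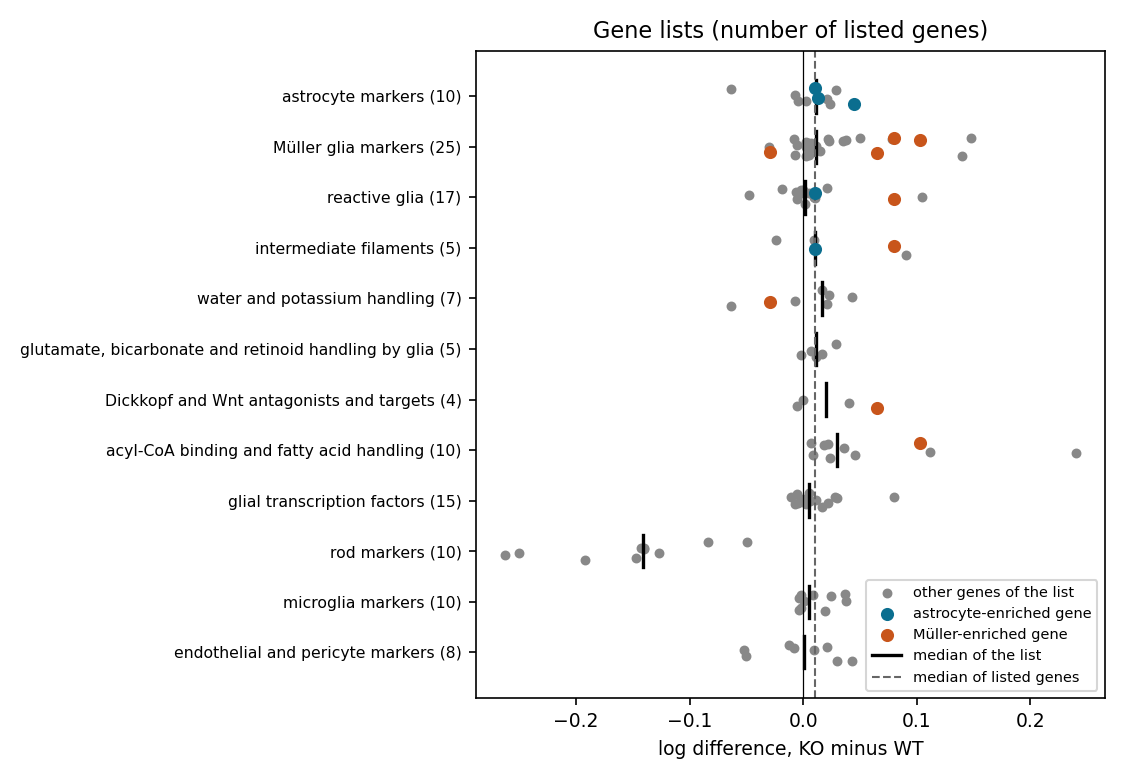
Log difference (horizontal axis, KO minus WT) of every listed gene in each list with at least 4 listed genes, 1 point per gene, with the list's median as a black bar and the 7 glial genes coloured by set. The astrocyte and Müller glia medians, 0.0114 and 0.0113, sit beside the dashed median of all genes, and the rod markers sit apart at -0.141.

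Markers of other retinal cells stand in the same pooled values. All 10 listed rod markers of 13 were called lower in the authors' deposited table, against 24.1% of all listed genes. Their median was -0.141, and their WT shares ran from 72.4% to 99.1%. The share in KO cells was larger for all 10, by 0.1 to 9.9 percentage points. A larger KO share was also listed for 97.4% of all genes with a negative log difference. Of 10 listed microglia markers the authors' deposited table called 6 higher and 4 lower, with a median of 0.00475. Of 8 listed endothelial and pericyte markers it called 4 higher and 3 lower, with a median of 0.000901. Over all listed genes 69.1% were called higher and 24.1% lower, and both medians lay below the 0.010 of all listed genes. The part of differing shares of rods, or of other cells, in the values of the glial genes was not tested.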

How the data were processed

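The genome build GRCm38 and the tools DESeq2, Seurat 3.1.4 and Cell Ranger are named, without roles, per the submitters' processing notes. For the test, the cell filters, doublets and integration, the method is not given in the sources used here. The one table analysed pools all cells of 3 WT and 5 KO libraries, with no value, depth or cell number per library. Its cluster column reads KO throughout, so KO was taken as the first group of cells and WT as the second.

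Log differences have no stated base in the authors' deposited table, and a natural log was assumed, the default in that Seurat version. Shares of cells above 0 are fractions in the authors' deposited table and were multiplied to percent. Each gene has a raw and an adjusted p-value in the authors' deposited table, and their quotient was 2000 in all 1554 rows where it could be formed, to within 0.001. The largest raw p was 0.00938, 198 of the 2000 features were not listed, and nothing is known here of genes outside the table. The units of the test are not stated. Raw p-values of 0 in 183 rows, beside 3 WT and 5 KO libraries, point to cells as replicates. The p-values are therefore not read as measuring the spread between libraries.

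A gene was called where its adjusted p was under 0.05. Ranks, medians and values against genes within 5 percentage points of WT share were computed with pandas 2.3.3 and checked on simulated data. No test was run, since no value per library was analysed. The members and the 14 gene lists were chosen with earlier results of these data known. Named genes are the 7 members, in each list up to 6 listed genes of largest absolute log difference, the nearest gene to each member, and Abca1. Some genes and sequences that these rules select are not reported here. Alternatives were other thresholds, adjustments, centring, windows and members.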

Additional observations from a re-analysis of the deposited data

How the results depend on the processing

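No paired analysis was possible because the table analysed holds no values per library, and for the same reason no library could be left out. The counts of 6 members called higher and 1 lower were the same at adjusted p under 0.01 and 0.001, the largest of the 7 being 0.000625. They were also the same against the median gene, which Gfap exceeded by 3.1e-05. Benjamini-Hochberg adjustment over 2000 features left them the same too. It could not have removed a call, because the authors' adjusted p was 2000 times the raw p. The difference of 0.0597 between the medians of the Müller-enriched and astrocyte-enriched genes was 0.0325 with means. With any 1 of the 7 genes left out it ranged from 0.0439 to 0.0673. Measured by gain in share it was 2.30 percentage points, and measured by the log2 ratio of shares it reversed to -0.0185, both chosen, like leaving out genes other than Vim and Aqp4, after seeing the data. Ndrg2 reversed to -0.00542 and -0.00341 against genes within 5 and 10 percentage points of its WT share. Without the 7 members, the astrocyte markers had 4 called higher in place of 7 and a median of 0.00269, and the median of the reactive glia list reversed to -0.000233. Against the median gene, the Müller glia markers had 11 called higher and 12 lower, in place of 18 and 5. The cause of these changes was not tested, except that fewer genes enter where members are left out. The depth behind each value is unknown.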
